A study of Mus musculus with 6 samples.

Results

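The genes described here are the Notch receptors NOTCH1, NOTCH2, NOTCH3 and NOTCH4, the Delta-like ligands DLL1, DLL3 and DLL4, the Jagged ligands JAG1 and JAG2, and LFNG. They were taken as the rows with these 10 symbols, written in capitals as the deposited tables give them, out of 19378 genes in the series. All 10 were listed in the 3 embryo sections and in the control paw, and 9 in the brain and in the arthritis paw, which did not list DLL3. Mouse tissue sections were laid on DNA arrays for a histone mark each, and the spots of an array give each value an array row and column. In wild-type whole embryos of stage E11.5, H3K27ac, H3K27me3 and H3K4me3 were measured, and the labels do not say whether these sections come from 1 embryo. H3K4me3 was also measured in wild-type adult brain. H3K27ac was measured in the paw of an adult mouse with collagen-induced arthritis at 42 days and in a control paw, likewise at 42 days. Both paws were decalcified and paraffin-embedded. Embryo sections were 16 µm thick, the brain section 20 µm and the paw sections 4 µm. There was 1 section for each combination, so no difference between sections has a replicate check and no p-value is given.

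Notch receptors are single-pass membrane proteins that are activated by ligands on a neighbouring cell. Binding leads ADAM proteases and then gamma-secretase to cut the receptor, and the freed intracellular domain enters the nucleus, where it joins RBPJ and Mastermind proteins at target genes such as the HES and HEY repressors. The pathway is known for keeping neural progenitors undifferentiated, for timing somite formation in the embryo, and for choosing tip and stalk cells in growing blood vessels. H3K4me3 is a mark of promoters, mostly active ones, and H3K27ac marks active promoters and enhancers. H3K27me3 is the mark of Polycomb repression, and in early tissues many developmental genes carry H3K27me3.

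The sections held 251 (embryo H3K27ac), 254 (embryo H3K27me3), 248 (embryo H3K4me3), 1200 (brain), 943 (arthritis paw) and 554 (control paw) spots, with 548923, 749650, 403483, 2036521, 5344438 and 5981684 reads over all listed genes. The median spot held 1972, 2596.5, 1481.5, 1179, 5296 and 10114.5 reads in the same order. The share of spots with a read and the most reads in a spot rise with this depth and are not corrected for it. A spot can cover several cells, so fewer cells that carry a mark and less mark per cell cannot be told apart. Levels are given as relative levels: the reads of a gene divided by the mean reads of the 9471 genes that all 6 sections list. The median listed gene stood at a relative level of 0.28, 0.25 and 0.23 in the embryo sections (H3K27ac, H3K27me3, H3K4me3), 0.61 in the brain, 0.54 in the arthritis paw and 0.32 in the control paw. Percentile ranks are taken among the genes each section lists, 11345 in the brain and 11130 in the arthritis paw against 18066 or more in the others, so the order of sections for a gene can differ between the scales. Neither scale is corrected for gene length, so a rank among all genes mixes length and mark, and levels of the members are not set against each other. Intervals are exact 95% intervals that cover counting error only, since the reads carry no replicate and may include copies. The labelled tissues were checked against marker genes. In the brain 7 of 8 neuronal markers were listed, from percentile 98.3 of all genes for RBFOX3 down to 5.54 for TUBB3. RBFOX3 was also at 93.4 in the arthritis paw and 96.1 in the control paw, so this marker does not set the brain apart here. Among joint markers, COL1A1 reached percentile 98.5 in the arthritis paw and 88.3 in the control paw, while PRG4, a joint lubricant gene, was at 5.64 in the control paw and not listed in the arthritis paw. The median percentile of 7 presomitic and somite markers was 82.2, 77.3 and 82.0 in embryo H3K27ac, H3K27me3 and H3K4me3. It was also 84.7 in the brain (6 markers listed), 84.7 in the control paw (7) and 69.8 in the arthritis paw (7), so this list does not set the embryo apart here.

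Promoter windows (250 bases before to 50 bases after the transcription start) from RefSeq, build GRCm38.p6, were matched by symbol for all 10 genes, with 11 windows in all because DLL1 has 2 starts. These coordinates are not in the build named for the deposited files, mm9, and no source used here gives the windows in which the authors counted reads. The windows below belong to the genes on which the comparisons turn, LFNG, DLL1 and DLL4, and to the 2 genes with the most and the fewest CG dinucleotides, JAG2 and NOTCH4. Each reads 5′ to 3′ on the strand of the gene, with CG dinucleotides in capitals.
LFNG, chr5:140607091-140607390, plus strand: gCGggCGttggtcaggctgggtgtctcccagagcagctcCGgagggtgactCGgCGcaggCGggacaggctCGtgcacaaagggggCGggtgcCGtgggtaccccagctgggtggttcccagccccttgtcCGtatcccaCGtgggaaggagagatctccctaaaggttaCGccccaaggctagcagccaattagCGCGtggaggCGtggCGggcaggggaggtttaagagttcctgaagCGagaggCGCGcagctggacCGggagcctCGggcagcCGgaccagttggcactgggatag
DLL1, chr17:15375774-15376073, minus strand: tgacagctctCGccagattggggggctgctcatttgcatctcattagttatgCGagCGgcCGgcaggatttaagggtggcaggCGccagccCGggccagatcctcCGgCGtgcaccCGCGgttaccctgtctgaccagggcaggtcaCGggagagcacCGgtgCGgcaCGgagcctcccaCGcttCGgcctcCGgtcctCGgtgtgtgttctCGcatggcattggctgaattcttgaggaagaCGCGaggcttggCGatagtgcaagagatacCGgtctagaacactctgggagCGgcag
DLL4, chr2:119325534-119325833, plus strand: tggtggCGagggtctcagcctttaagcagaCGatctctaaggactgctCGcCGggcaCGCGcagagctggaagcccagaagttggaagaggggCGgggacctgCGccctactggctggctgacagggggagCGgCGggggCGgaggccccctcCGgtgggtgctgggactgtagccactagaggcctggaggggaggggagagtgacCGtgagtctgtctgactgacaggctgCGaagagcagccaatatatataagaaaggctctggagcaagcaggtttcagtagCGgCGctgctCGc
JAG2, chr12:112929446-112929745, minus strand: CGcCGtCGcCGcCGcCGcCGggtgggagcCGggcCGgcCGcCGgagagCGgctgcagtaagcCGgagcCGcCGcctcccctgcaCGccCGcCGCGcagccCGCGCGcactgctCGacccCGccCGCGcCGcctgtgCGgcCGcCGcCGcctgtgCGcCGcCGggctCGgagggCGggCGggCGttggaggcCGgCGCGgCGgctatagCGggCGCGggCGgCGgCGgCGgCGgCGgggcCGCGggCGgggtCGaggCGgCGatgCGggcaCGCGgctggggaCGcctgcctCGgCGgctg
NOTCH4, chr17:34564045-34564344, plus strand: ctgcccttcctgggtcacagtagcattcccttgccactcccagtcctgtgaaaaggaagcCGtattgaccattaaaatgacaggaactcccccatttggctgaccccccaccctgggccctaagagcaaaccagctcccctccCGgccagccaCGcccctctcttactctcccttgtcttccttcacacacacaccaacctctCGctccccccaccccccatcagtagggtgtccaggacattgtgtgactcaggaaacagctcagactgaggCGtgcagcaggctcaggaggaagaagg
The JAG2 window held 63 CG dinucleotides, which placed it at percentile 99.98 of the 32851 windows of the reference table. LFNG and JAG1 held 22 each, the first DLL1 window 24, DLL4 17 and NOTCH4 5. Of the 11 windows, 10 lay above the median of all windows, 7. The letters TGGGAA on either strand (TGGGAA or TTCCCA), the core of the sequence that RBPJ binds, occurred 2 times in the LFNG window and in no other window of the 10 genes, while 25.6% of all 32851 windows held them at least once.

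Ranks within a section, uncorrected for length, were mostly in the upper part of the list. The median percentile rank by reads was 77.1 for embryo H3K27ac, 79.5 for embryo H3K27me3, 75.5 for embryo H3K4me3, 61.6 in the brain, 68.6 in the arthritis paw and 75.1 in the control paw, where 50 is the middle of all genes. Together they held between 0.0541% (embryo H3K27ac) and 0.147% (embryo H3K27me3) of the reads of a section.

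**Figure D1:**
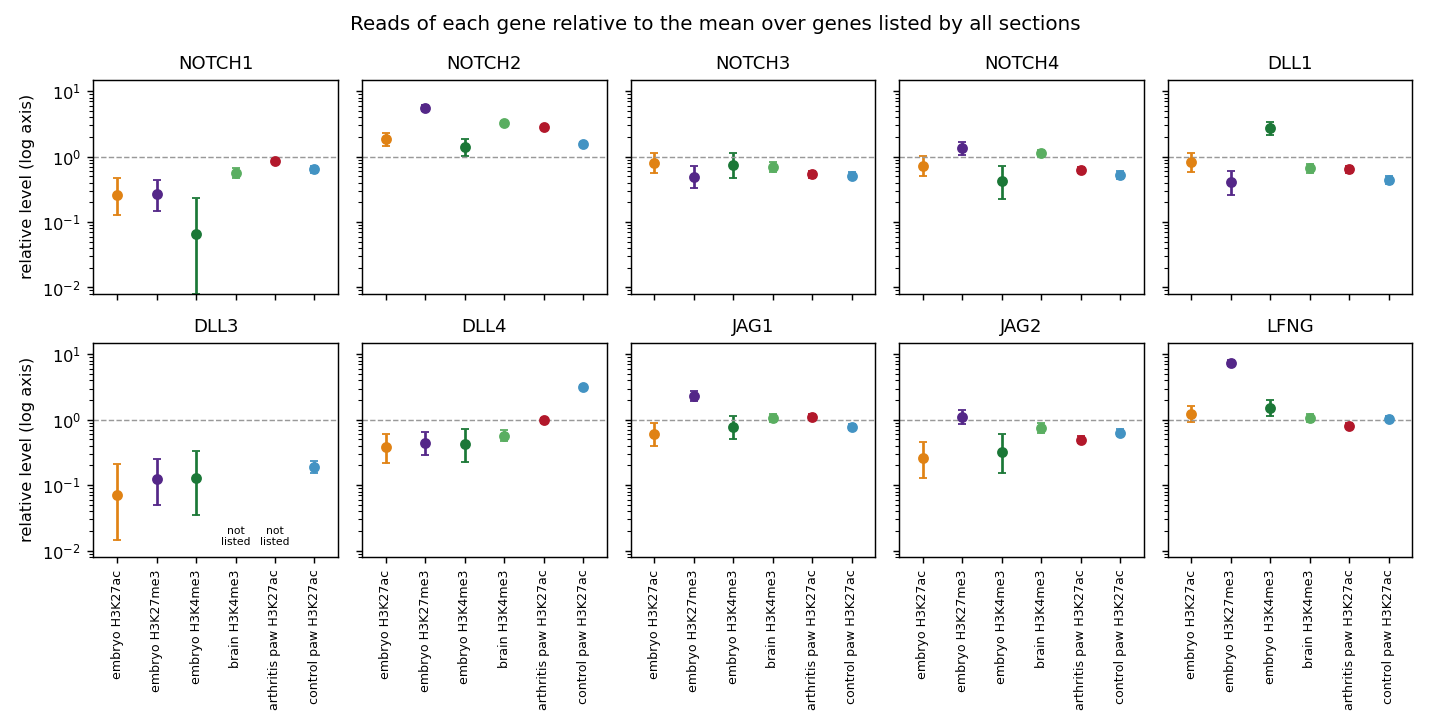
Relative level of each gene in the 6 sections on a log axis, with exact 95% counting intervals; the dashed line is the mean of the 9471 genes listed by all sections. LFNG and NOTCH2 stand highest in embryo H3K27me3 (7.39 and 5.52), DLL1 in embryo H3K4me3 (2.70) and DLL4 in the control paw (3.20).

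NOTCH2, a receptor widely expressed in development, had 78 reads in embryo H3K27ac, 313 in embryo H3K27me3, 43 in embryo H3K4me3, 651 in the brain, 1435 in the arthritis paw and 692 in the control paw, which are relative levels of 1.84, 5.52, 1.40, 3.29, 2.81 and 1.56. Embryo H3K27me3 was the highest, followed by the brain and the arthritis paw, and the intervals of these 3 did not overlap; the intervals of the 3 lowest sections overlapped between neighbours in the order. Its percentile rank was between 92.1 (embryo H3K4me3) and 98.4 (embryo H3K27me3). A NOTCH2 read was found in 65.4% of the spots of embryo H3K27me3, against 25.5% for H3K27ac and 14.9% for H3K4me3. These shares are not corrected for depth per spot, which was highest for H3K27me3.

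NOTCH1, a receptor used in neural, vascular and blood cell fate choices, had few reads in the embryo. They were 11 (H3K27ac), 15 (H3K27me3) and 2 (H3K4me3), at relative levels of 0.26, 0.26 and 0.065. The brain had 112 reads (0.57), the arthritis paw 446 (0.87, interval 0.79 to 0.96) and the control paw 284 (0.64, interval 0.57 to 0.72). On this scale the brain and both paws were above the embryo sections, and the arthritis paw above the control paw beyond counting error. The percentile ranks gave another order: 51.6 for embryo H3K27me3, 47.3 for H3K27ac and 46.3 for the brain were close to the middle of all genes, the arthritis paw (71.1) was below the control paw (75.3), and embryo H3K4me3, with 2 reads, was at 15.5.

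NOTCH3, which is known for its role in the mural cells of arteries, varied least of the receptors in relative level. Relative levels were 0.80 and 0.49 for embryo H3K27ac and H3K27me3, 0.75 for embryo H3K4me3, 0.70 in the brain, 0.54 in the arthritis paw and 0.51 in the control paw, from 34, 28, 23, 138, 276 and 227 reads. All neighbours in order of level had overlapping intervals. By percentile NOTCH3 was at 83.0, 81.6 and 70.5 in embryo H3K4me3, H3K27ac and H3K27me3. The control paw was at 68.0, the brain at 57.4 and the arthritis paw at 50.3, which is another order. NOTCH4, a receptor of endothelial cells, was highest in embryo H3K27me3 with 77 reads (relative level 1.36), next in the brain with 223 reads (1.13) and in embryo H3K27ac with 31 reads (0.73). The lower levels were 0.63 (324 reads) in the arthritis paw, 0.53 (234 reads) in the control paw and 0.42 (13 reads) in embryo H3K4me3. Neighbours in this order had overlapping intervals. Embryo H3K27me3 (1.07 to 1.70) still lay above embryo H3K27ac (up to 1.04) and every section below that. By percentile NOTCH4 was at 90.9 in embryo H3K27me3, 79.6 in the brain and 79.4 in embryo H3K27ac. The control paw (69.1) and embryo H3K4me3 (68.0) were above the arthritis paw (57.6) on that scale.

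Among the Delta-like ligands, DLL1 acts in somites and in neurogenesis. It had 83 reads in embryo H3K4me3, a relative level of 2.70 (interval 2.15 to 3.34), against 35 reads and 0.83 for H3K27ac and 23 reads and 0.41 for H3K27me3 in the embryo. The other sections gave 0.66 (131 reads, brain), 0.64 (326 reads, arthritis paw) and 0.44 (196 reads, control paw). Embryo H3K4me3 was the section that stood apart: the interval of the next one, embryo H3K27ac, ended at 1.15. In embryo H3K4me3 DLL1 reached percentile 96.2 and was read in 27.8% of spots, while in the adult brain, under the same mark, it was at percentile 54.8.

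DLL3, a ligand that acts inside the cell and is needed for somite segmentation, was barely read. The embryo sections had 3, 7 and 4 reads for H3K27ac, H3K27me3 and H3K4me3, too few to order them. In the control paw it had 85 reads, a relative level of 0.19, and stood at percentile 30.1.

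DLL4, the ligand of sprouting blood vessels, was highest in the control paw. It had 1418 reads in the control paw, a relative level of 3.20 (interval 3.04 to 3.37), and 507 reads in the arthritis paw, a relative level of 0.99 (interval 0.91 to 1.08). The brain followed with 113 reads (0.57), then the embryo with 25 reads for H3K27me3 (0.44), 13 for H3K4me3 (0.42) and 16 for H3K27ac (0.38). By percentile the brain, at 46.7, was below the embryo sections, at 67.4, 68.0 and 59.5 in that order, and the intervals of the levels of brain and embryo overlapped. In the control paw the gene was at percentile 97.3 and was read in 80.3% of spots, with up to 16 reads in a spot. In the arthritis paw it was read in 40.5% of spots, with up to 4. The median spot held 10114.5 reads in the control paw and 5296 in the arthritis paw, and these spot values are not corrected for depth.

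Both Jagged ligands were highest in embryo H3K27me3. JAG1, which acts in vessels, the heart and the inner ear, had 131 reads there (relative level 2.31, interval 1.93 to 2.74). Its other levels were 1.11 in the arthritis paw (568 reads), 1.06 in the brain (210), 0.78 in the control paw (346), 0.78 in embryo H3K4me3 (24) and 0.61 in embryo H3K27ac (26). JAG2, a ligand known from limb and craniofacial development, had 63 reads for embryo H3K27me3 (1.11, interval 0.85 to 1.42), 149 in the brain (0.75), 280 in the control paw (0.63), 255 in the arthritis paw (0.50), 10 for embryo H3K4me3 (0.33) and 11 for embryo H3K27ac (0.26). The first place of JAG1 was separate from the second by its interval and that of JAG2 was not. By percentile embryo H3K27me3 was also first, at 95.3 and 88.4, but the other sections changed order. JAG1 was at 83.8 in embryo H3K4me3, 81.0 in the control paw, 79.3 in the arthritis paw, 77.4 in the brain and 74.8 in embryo H3K27ac. JAG2 was at 74.8 in the control paw, 61.6 in the brain, 59.9 in embryo H3K4me3, 47.3 in embryo H3K27ac and 46.3 in the arthritis paw.

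LFNG encodes a glycosyltransferase that adds sugars to Notch receptors, which changes how they respond to Delta-like and Jagged ligands, and its oscillating expression is part of the somite clock. It had 419 reads in embryo H3K27me3, a relative level of 7.39 (interval 6.69 to 8.13), above every other section for this gene. Embryo H3K4me3 gave 47 reads (1.53), embryo H3K27ac 52 (1.23), the brain 212 (1.07), the control paw 459 (1.04) and the arthritis paw 417 (0.82). It stood at percentile 98.9 in embryo H3K27me3, was read in 184 of 254 spots (72.4%) and reached 11 reads in a spot, against at most 3 reads in a spot for the other embryo marks. These spot values are not corrected for depth: the median spot held 2596.5 reads for H3K27me3, 1972 for H3K27ac and 1481.5 for H3K4me3. Of the LFNG reads in embryo H3K27me3, 2.63% lay in the range of values where the number recovered is a lower limit. GRIFIN, the gene before LFNG on the chromosome, had 615 reads in embryo H3K27me3, 33 in H3K27ac and 11 in H3K4me3. TTYH3, the gene after it, had 8, 8 and 5. Over spots the Pearson correlation of LFNG with GRIFIN was 0.49 in embryo H3K27me3 and at most 0.20 in the other sections. It is not corrected for depth, and LFNG correlated at 0.59 with the total reads of a spot in embryo H3K27me3. Whether LFNG and GRIFIN share signal was not tested.

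**Figure D2:**
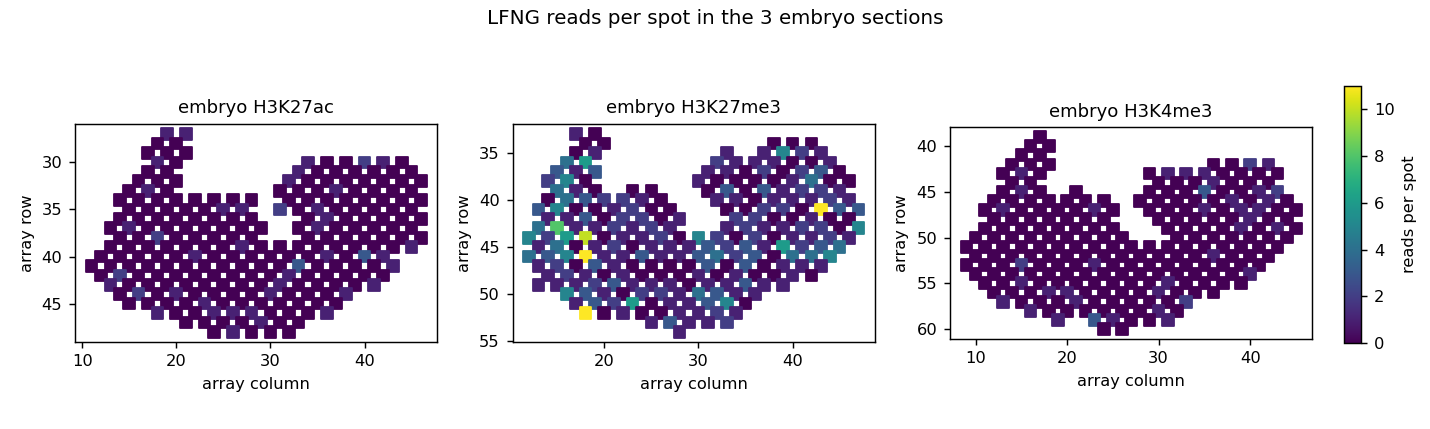
Reads of LFNG in each spot of the 3 embryo sections, by array column and row, on one colour scale from 0 to 11 reads. Spots with reads lie over all of the H3K27me3 section (184 of 254 spots), and are scattered and mostly of 1 read for H3K27ac (43 of 251 spots) and H3K4me3 (39 of 248 spots). Reads are not corrected for depth per spot, which was highest for H3K27me3.

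The sections were then compared in 6 pairs. For each gene the log2 ratio of relative levels was taken after adding 0.1 to both, and a gene was called higher in a section if its ratio lay at least 1 (2-fold) from the median of all genes compared. Intervals come from the exact binomial interval of the 2 read numbers.

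In the embryo, the repressive mark was set against acetylation first, over 18653 genes with a median log2 ratio of -0.08. H3K27me3 was higher past 2-fold for 4 of 10 genes, LFNG at 2.49 (interval 2.10 to 2.90), JAG1 at 1.75 (1.20 to 2.32), JAG2 at 1.75 (1.00 to 2.48) and NOTCH2 at 1.53 (1.18 to 1.89), while 10.6% of all genes were. None was higher past 2-fold for H3K27ac, against 10.3% of all genes. The lowest was DLL1 at -0.88 (-1.55 to -0.20). NOTCH4 at 0.81 (0.25 to 1.38) lay above the median of all genes and below the 2-fold line. The median of the 10 genes was 0.60. JAG2 was past the line in these sections with either 0.1 or 0.01 added, and not with 1 added (0.74) or in the odd array columns alone (0.88).

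Against H3K4me3, over 17837 genes with a median of 0.07, H3K27me3 was higher past 2-fold for 6 of 10 genes, against 12.0% of all genes. LFNG had a log2 ratio of 2.20 (1.79 to 2.64) and NOTCH2 of 1.91 (1.47 to 2.37). JAG2 at 1.51 (0.70 to 2.32), NOTCH4 at 1.48 (0.74 to 2.23) and JAG1 at 1.45 (0.87 to 2.06) followed. The sixth, NOTCH1, rested on 15 and 2 reads, and its interval, -0.05 to 1.87, held the median of all genes. DLL1 was the gene higher for H3K4me3, at -2.47 (-3.06 to -1.88), where 10.4% of all genes were. NOTCH3, DLL3 and DLL4 lay within 2-fold. With 1 added to both levels in place of 0.1, 3 genes stayed past the line: LFNG, NOTCH2 and DLL1. This comparison shares the H3K27me3 section with the one before.

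Between the active marks of the embryo, DLL1 was set apart from the rest. Over 17762 genes with a median of 0.16, it was lower in H3K27ac than in H3K4me3 at -1.59 (-2.14 to -1.05), the only one of 10 genes past 2-fold in that direction, against 10.5% of all genes. No gene of the group was higher past 2-fold in H3K27ac, against 11.6% of all genes. NOTCH1, at 1.13 (-0.13 to 1.89) on 11 and 2 reads, lay just inside the line, and was past it under 6 of the 8 other settings that gave a value for it. LFNG, with a ratio of -0.29 (-0.85 to 0.27), did not differ between the active marks beyond counting error.

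**Figure D3:**
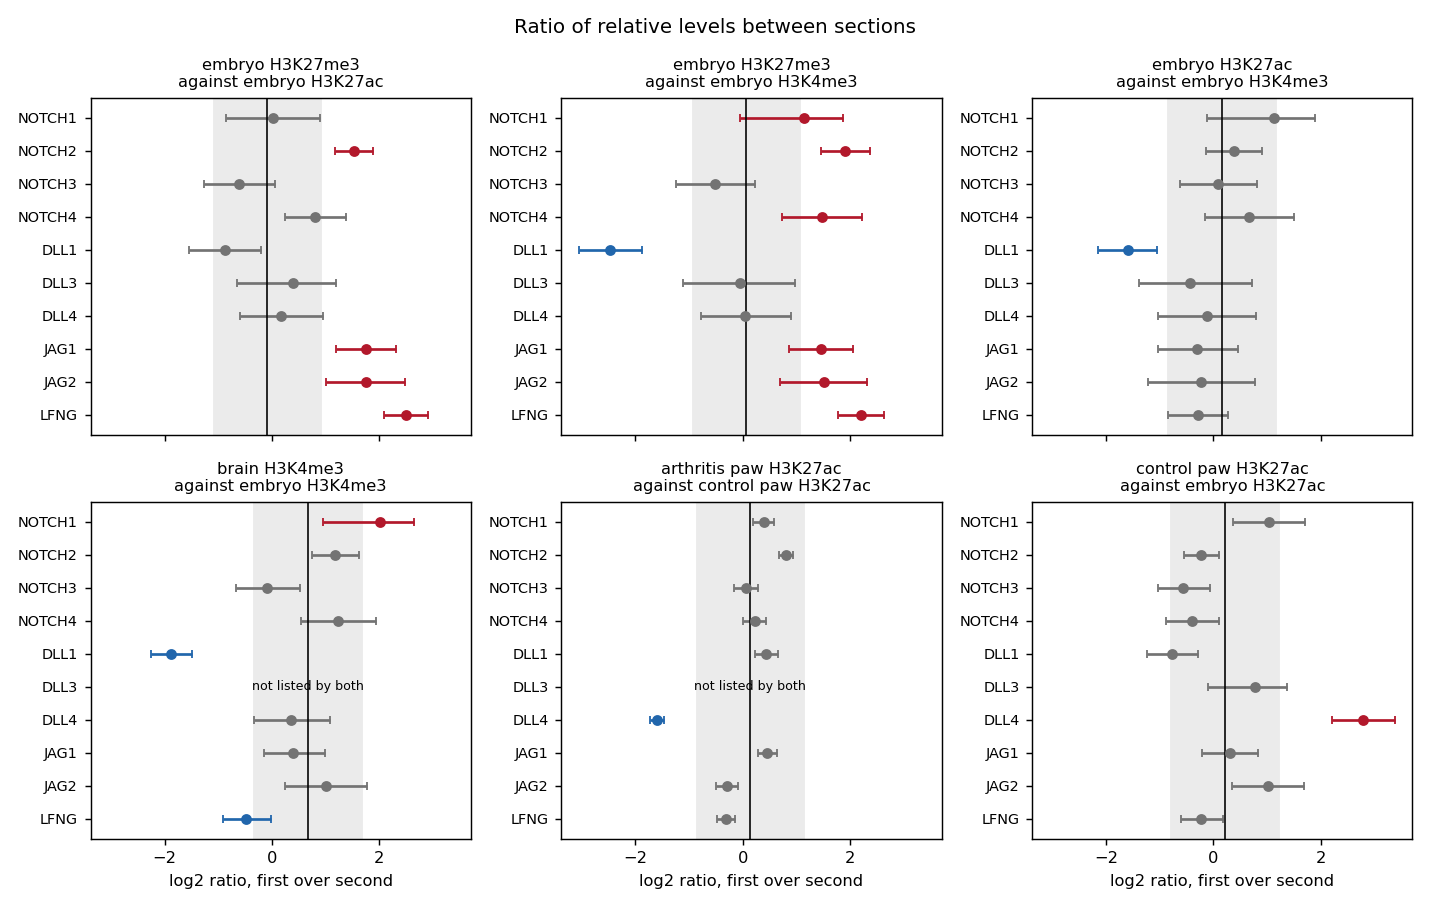
Log2 ratio of relative levels in the 6 comparisons, first section over second, with exact 95% counting intervals. The black line is the median of all genes compared and the grey band is 2-fold around it; red and blue points are outside it. LFNG, NOTCH2, JAG1 and JAG2 lie to the right in both comparisons of embryo H3K27me3, and DLL1 to the left in all 3 comparisons against embryo H3K4me3.

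Adult brain and embryo were compared under H3K4me3 over 11127 genes, whose median log2 ratio was 0.67, so that a gene at the median has a higher relative level in the brain. DLL1 was far below it at -1.88 (-2.25 to -1.49), and LFNG was below it at -0.48 (-0.91 to -0.02). These were 2 of 9 genes past 2-fold towards the embryo, against 11.6% of all genes. NOTCH1 was the 1 of 9 past 2-fold towards the brain, at 2.01 (0.96 to 2.64), against 6.62% of all genes, and rests on 2 reads in the embryo. NOTCH4 at 1.23, NOTCH2 at 1.18 and JAG2 at 1.00 lay above the median and inside the line. NOTCH3 at -0.09 (-0.66 to 0.52), DLL4 at 0.36 and JAG1 at 0.40 lay below the median and inside the line. The interval of NOTCH3 did not hold the median. LFNG was not past the line in the even array columns alone (0.07, median of all genes 0.71), and NOTCH1 was not in the odd columns alone (1.36, median 0.64). Neuronal markers listed by both, 7 of 8, summed to a relative level of 9.92 in the brain and 4.45 in the embryo, and 8 of 9 neural progenitor markers to 11.9 and 8.16. T cell and B cell (5.91 and 2.24), epidermis (2.26 and 0.91), endothelial and joint lists were higher in the brain too. Astrocyte (4.06 and 4.65) and mural cell (4.95 and 5.43) lists were lower. These sums are not corrected for the higher median of all genes in the brain. The part of these lists in the ratios of DLL1 and LFNG was not tested. The presomitic and somite list, 6 of 8 genes, summed to 21.1 and 41.9. Single genes made up most of each sum, RIPPLY2 at 14.7 in the brain and TBX18 at 35.0 in the embryo, both lower limits of the recovery.

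In the paws the arthritis section was set against the control section over 11130 genes, with a median of 0.14. DLL4 was lower in the arthritis paw at -1.60 (-1.73 to -1.46), the 1 of 9 genes past 2-fold in that direction, against 8.89% of all genes. None was higher past 2-fold in the arthritis paw, against 9.70% of all genes. NOTCH2 came closest at 0.81 (0.68 to 0.93), and JAG1 at 0.46, DLL1 at 0.44 and NOTCH1 at 0.39 also lay above the median with intervals that did not hold it. LFNG at -0.31 (-0.49 to -0.14) and JAG2 at -0.29 (-0.50 to -0.08) lay below it, while NOTCH3 (0.06) and NOTCH4 (0.22) did not differ from the median beyond counting error. When spots with a read were counted in place of reads, the ratio of DLL4 was -0.71 and inside the line. Endothelial markers listed by both paws, 7 of 9, summed to a relative level of 3.12 in the arthritis paw and 5.63 in the control paw, with single genes from 0.24 to 1.02 and from 0.18 to 2.08; none was at 0. KDR (0.33 and 2.08) and FLT1 (1.02 and 1.93) made up most of this gap, while ESAM, EMCN and CLDN5 were higher in the arthritis paw. Mural cell markers, 5 of 8, summed to 3.69 and 8.52, of which MYH11 alone gave 1.03 and 5.93, and T cell and B cell markers, 4 of 7, to 4.63 and 8.75, of which MS4A1 gave 0.52 and 5.56. Other lists were higher in the arthritis paw: neural progenitors (23.0 and 9.32), epidermis (9.40 and 4.54) and joint (9.04 and 5.11). Single genes weighed heavily here too. The highest gene of each list gave 10.8, 6.07 and 5.67 of these sums in the arthritis paw, and 2.35, 3.24 and 1.42 in the control paw. The part of all these lists in the difference of DLL4 was not tested. With 1 paw on each side, the animal, the block and the section cannot be told apart from the disease.

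Control paw and embryo were compared under H3K27ac over 18943 genes, with a median of 0.22. DLL4 was the 1 of 10 genes past 2-fold towards the paw, at 2.79 (2.20 to 3.39), from 1418 and 16 reads, against 8.59% of all genes. Towards the embryo no gene of the group was past 2-fold, against 10.0% of all genes; DLL1 came closest at -0.77 (-1.24 to -0.29). NOTCH1 at 1.04 (0.37 to 1.71) and JAG2 at 1.02 (0.35 to 1.69) lay above the median and inside the line. NOTCH3 at -0.56, NOTCH4 at -0.41, NOTCH2 at -0.23 and LFNG at -0.23 lay below the median. DLL3 (0.77) and JAG1 (0.30) lay above it with intervals that held it. All 9 endothelial markers were listed by both, and summed to 5.86 in the control paw and 2.34 in the embryo. The highest gene of the list gave 2.08 and 0.76 of these sums, and the median percentile of the list was 45.8 and 41.2. T cell and B cell markers (9.30 and 3.28, of which MS4A1 gave 5.56 in the paw) and astrocyte markers (3.81 and 1.82) were higher in the paw too. So were neuronal (8.07 and 6.99) and neural progenitor (9.59 and 8.44) lists, while the mural cell list was level (9.20 and 9.19). Somite (6.68 and 9.03), joint (5.84 and 6.38) and epidermis (4.68 and 4.70) lists were lower in the paw. The part of these lists in the ratio of DLL4 was not tested.

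The control paw showed a pattern of array columns that touched DLL4 and JAG2 in opposite directions. Columns 1, 5, 9, 13, 17 and 21, picked after their values were seen, held 129 of 554 spots and 12.9% of all reads. They held 99 of the 1418 DLL4 reads, 6.98% (exact 95% interval 5.71 to 8.43), and 86 of the 280 JAG2 reads, 30.7% (25.4 to 36.5). NOTCH2 (20.1%) and NOTCH3 (18.1%) were also above the share of all reads beyond counting error, and the intervals of the other 6 genes held that share. Among 16960 genes with at least 50 reads, the share of JAG2 in these columns stood at percentile 96.9 and that of DLL4 at 5.85. In the arthritis paw the same columns held 18.3% of all reads, 18.5% of DLL4 reads and 16.1% of JAG2 reads. Without these columns the ratio of arthritis over control paw was -1.69 for DLL4, and for JAG2 it moved from -0.29 to 0.03. The ratio of DLL4 over the embryo was 2.88 without them.

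**Figure D4:**
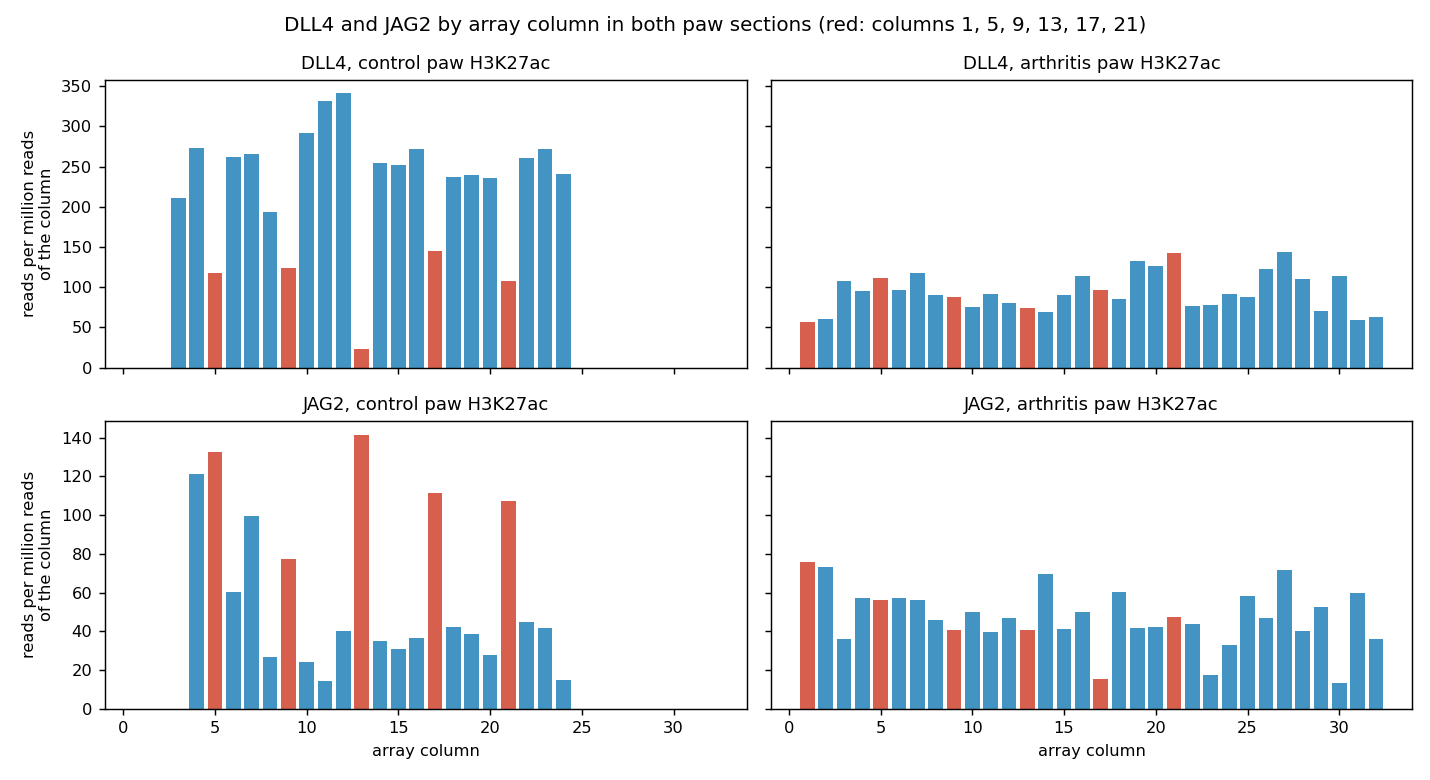
Reads of DLL4 (top) and JAG2 (bottom) relative to all reads of each array column, scaled as on the axis, in the control paw (left) and the arthritis paw (right); columns 1, 5, 9, 13, 17 and 21 are in red. In the control paw the red columns are low for DLL4 (6.98% of its reads) and mostly high for JAG2 (30.7%), and in the arthritis paw they are not set apart (18.5% and 16.1%, against 18.3% of all reads).

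Position in the section was described by cutting each array at its median row and median column, and by comparing the share of the reads of a gene in each of the 4 fields with the share of all reads there. Genes with at least 50 reads entered, which gave 144 shares. Few of them differed beyond counting error: 0 of 8 in embryo H3K27ac (5.29% of all genes' shares did), 1 of 20 in embryo H3K27me3 (5.85%), 1 of 4 in embryo H3K4me3 (6.89%), 2 of 36 in the brain (4.58%), 5 of 36 in the arthritis paw (7.59%) and 2 of 40 in the control paw (9.20%). DLL1 in embryo H3K4me3 had 45.8% of its reads (34.8 to 57.1) in the field of high rows and high columns, where 34.3% of all reads lay. In the arthritis paw LFNG had 42.4% (37.7 to 47.3) in the field of high rows and low columns, where 34.6% of all reads lay, and 7.19% in that of high rows and high columns, where 11.6% lay. LFNG in embryo H3K27me3 had 22.0% (18.1 to 26.2) in the field of high rows and high columns, against 17.8% of all reads. Over spots, 2 genes of the group had a partner with a Pearson correlation of at least 0.5: LFNG in embryo H3K27me3 with DRAM2 (0.59 over 254 spots) and DLL4 in the control paw with LMF1 (0.71 over 554 spots). These values were close to their correlations with the total reads of a spot, 0.59 for LFNG and 0.69 for DLL4, so spots share depth. The reads of DRAM2 and LMF1 are themselves lower limits in these sections.

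The rest of the pathway was counted from 6 lists of 64 genes. In embryo H3K27me3 against H3K27ac, 8 of 62 genes were higher for H3K27me3 (12.9%) and 6 for H3K27ac (9.68%), shares near those of all genes. ADAM17, a protease that can cut Notch receptors, had 906 reads for H3K27me3 and 46 for H3K27ac, a log2 ratio of 3.76 (3.36 to 4.18). Among target genes HEY2 was at 2.29 (1.79 to 2.80) and IL2RA at 1.72, with DTX1 on the other side at -1.30. SNW1, a cofactor of the nuclear complex, was at 2.32, and B4GALT1, a galactosyltransferase that extends the sugars started by Fringe enzymes, at 2.41 on 46 and 3 reads. Towards H3K27ac, DTX3, a member of the Deltex family of ubiquitin ligases, was at -3.21 with 40 and 310 reads, and the non-canonical ligand DLK1 at -2.16 with 582 and 1950 reads. The DLK1 reads of embryo H3K27ac are a lower limit, so its ratios against that section are limits in size too. APH1A, a gamma-secretase subunit, was at -1.77.

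Against H3K4me3, 11 of 61 pathway genes were higher for H3K27me3 (18.0%, against 12.0% of all genes) and 4 for H3K4me3 (6.56%, against 10.4%). ADAM17 was at 4.04 (3.53 to 4.58), SNW1 at 3.79 (2.97 to 4.58) and HEY2 at 2.26 (1.70 to 2.86). Of the 12 genes of the nuclear complex, 4 were past 2-fold for H3K27me3: SNW1, MAML1 at 1.63 on 29 and 3 reads, SPEN at 1.14 and RBPJ itself at 1.13 (0.32 to 1.94). SPEN rested on 19 and 3 reads, and its interval, 0.01 to 1.98, held the median of all genes. The 4 on the other side were FBXW7 at -1.75, EPN1 at -1.39 and ITCH at -1.08, which act in turnover and endocytosis, and MFAP5 at -1.50. Of the 5 glycosylation genes 1, B4GALT1, was past 2-fold, at 1.99. Between the active marks 7 of 62 were higher for H3K27ac (11.3%, against 11.6% of all genes) and 5 for H3K4me3 (8.06%, against 10.5%), shares at or below those of all genes. The largest ratios were those of DTX3 at 2.97 and DLK1 at 2.48.

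In the brain against the embryo under H3K4me3, 5 of 44 pathway genes were past 2-fold towards the brain (11.4%, against 6.62% of all genes) and 6 towards the embryo (13.6%, against 11.6%). SPEN, a corepressor of RBPJ, was at 2.26, the ubiquitin ligase gene NEURL1A at 1.81 with 479 and 19 reads, and MFNG, a relative of LFNG, at 1.76 on 91 and 2 reads. Towards the embryo FBXW7 was at -0.68 and MFAP5 at -0.87. In the arthritis against the control paw, 4 of 44 were past 2-fold in each direction, 9.09%, which is near the 9.70% and 8.89% of all genes and so is no result about the pathway. DTX3L led the higher ones at 3.69 (3.50 to 3.88), with 2891 and 153 reads, and HEY1, a Notch target gene, was at 2.17 (1.95 to 2.39), with 744 and 109 reads. B4GALT1 at -2.52, EPN1, which acts in ligand endocytosis, at -2.48 and the target NRARP, with 92 and 203 reads, were among the lower ones. The paw and embryo H3K27ac sections differed past 2-fold for 9 of 63 genes towards the paw (14.3%, against 8.59% of all genes) and 8 towards the embryo (12.7%, against 10.0%), among them the kinase gene AAK1 at 6.51 with 11599 and 8 reads, where the first number is a lower limit, and DLK1 at -3.75.

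The deposited values themselves placed some of these genes elsewhere. Within a spot, genes with equal reads had been ranked in the order of one gene list, so that genes without reads could receive values above 0 if they stood late in it. LFNG stands at 4.43% of that order and JAG2 at 85.2%. By deposited values LFNG was at percentile 48.4 in the brain and 39.9 in the arthritis paw, against 77.7 and 68.6 by reads, and JAG2 was at 92.4 in the control paw, 83.2 in the brain and 68.4 in the arthritis paw, against 74.8, 61.6 and 46.3. DLL3 in the control paw was at 5.91 by deposited values and 30.1 by reads. The highest ranks were close by both: LFNG and NOTCH2 in embryo H3K27me3 were at 98.5 and 98.2 by deposited values.

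**Figure D5:**
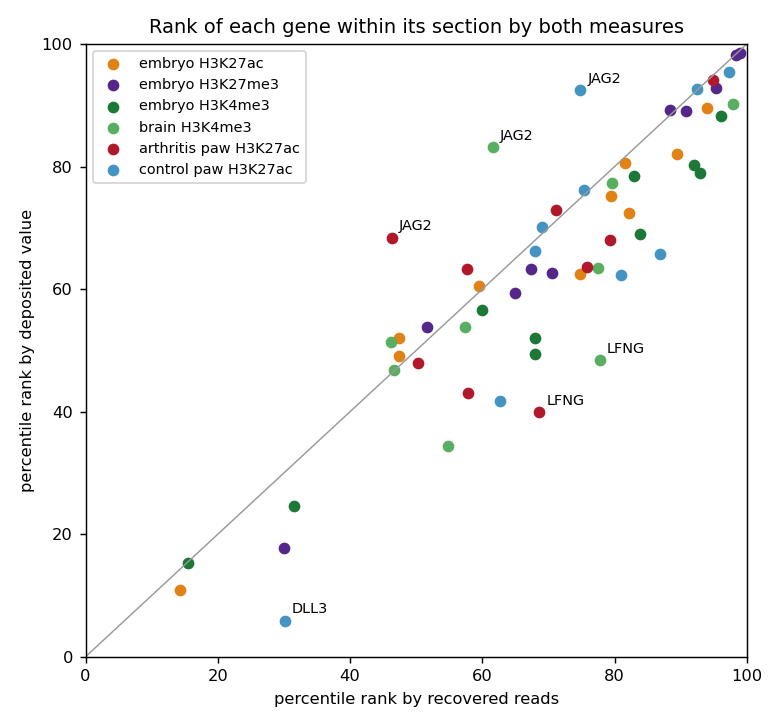
Percentile rank of each gene within its section by recovered reads (horizontal) and by deposited value (vertical), 58 points coloured by section; the line marks equal ranks. JAG2 lies above the line in the brain and both paws, and LFNG in the brain and arthritis paw and DLL3 in the control paw lie below it.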

How the data were processed

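The submitters' processing notes name 3 tools (Bowtie2, featureCounts, MACS2) and 2 builds (mm9, hg19), without versions or roles. The deposited tables hold a signal value per gene and spot, which the authors quantile-normalised (per the file names, QNorm). Genes with equal reads had been ranked in 1 gene order, so reads were recovered from the tied ranks, each fall in that order marking 1 further read. Recovered reads made up 92.9% to 95.4% of the total of the authors' list. Rank by rank, their sums over spots equalled that list at 50.8%, 51.6% and 51.2% of ranks in embryo H3K27ac, H3K27me3 and H3K4me3. The share was 37.4% in the brain, 99.1% in the arthritis paw and 98.8% in the control paw. Intervals take the recovered reads as exact and do not cover errors of recovery. In 13, 9 and 23 spots of the embryo sections (H3K27ac, H3K27me3, H3K4me3) and in 1 spot of each other section, genes with a read may be listed at 0. A gene with over 10% of its reads among counts that fewer than 5 genes of a spot hold has a read number that is only a lower limit (60 to 197 genes per section, none of the 10 genes; DLK1, TBX18, RIPPLY2, AAK1, DRAM2 and LMF1 where the text says so). The recovery was also run on simulated data modelled on embryo H3K27me3 and H3K27ac and on both paws, not on the brain or embryo H3K4me3. Ties there were broken by the gene order that the recovery assumes, so the simulation cannot check that assumption. Relative levels, ranks, ratios (pseudocount 0.1) and exact intervals were computed with Python 3.11.15, numpy 2.4.6, pandas 2.3.3, scipy 1.17.1 and numba 0.67.0, and figures with matplotlib 3.10.9. All 10 genes are named. Of each other list at most 4 per direction are named, by size. The gene most correlated over spots is named where r was at least 0.5 and reads at least 50. Both neighbours of LFNG on the chromosome are named as well. The genes, lists and settings were chosen with earlier results of these data known.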

Additional observations from a re-analysis of the deposited data

How the results depend on the processing

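With 1 section per group, intervals cover counting error alone, and genes with few reads limit the embryo comparisons. Of the 17 ratios past 2-fold, none changed side under any setting; 10 stayed past 2-fold with a pseudocount of 1, 13 in odd array columns, 16 in even columns and 16 by the share of spots with a read, and all 17 with deposited values, a pseudocount of 0.01, means of spot shares, or the highest 1% of spots left out. The number past 2-fold in embryo H3K27me3 against H3K4me3 was 3 with a pseudocount of 1 (7 as reported). In embryo H3K27ac against H3K4me3 (1 as reported) it was 3 with deposited values, with a pseudocount of 0.01, in even and in odd columns, and 2 by share of spots, by spot shares and without the highest 1% of spots. In brain against embryo (3 as reported) it was 6 with deposited values and 1 with a pseudocount of 1. In arthritis against control paw (1 as reported) it was 0 by share of spots, where the median of the genes was 0.0062 in place of 0.22. In control paw against embryo (1 as reported) it was 4 with deposited values, 3 with a pseudocount of 0.01, in even columns and without the highest 1% of spots, and 2 in odd columns, by share of spots, by spot shares and without the 6 array columns, a setting chosen after seeing the data. The median of the genes in embryo H3K27me3 against H3K27ac was 1.53 where genes of mean relative level under 0.5 were left out (0.60 as reported), since fewer genes remained. For the others the cause was not tested. Of 58 percentile ranks, 27 left their counting interval with deposited values and 1 by share of spots; all 11 shares by field of the section that differed from all reads stayed within theirs without spots of under 0.25 times the median depth. No paired analysis was possible because the labels give each group 1 section and no replicate numbers.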
